A study of Mus musculus with 4 samples.

Results

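The genes described here are the 45 of 55401 gene models whose symbols follow the proteasome naming Psma to Psmg with a number, without the immunoproteasome genes Psmb8, Psmb9 and Psmb10. They were chosen by name alone, with no measured value. The libraries come from group 2 innate lymphoid cells (ILC2s), lymphocytes that lack antigen receptors and secrete type 2 cytokines, purified from lungs of C57BL/6 mice, with 500 cells per sample. One group of 2 libraries received the epithelial alarm cytokine IL-33 plus angiotensin II (Ang II) for 6 h, and the other group of 2 libraries received IL-33 alone for 6 h. Both groups therefore carry the IL-33 stimulus, and no unstimulated cells were analysed here. The labels do not say whether the libraries of a group come from separate mice or cultures, or how old the mice were. Values are FPKM, which divide fragments by transcript length and by the mapped total, so levels can be compared between genes.

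The proteasome is the particle that cuts up proteins tagged with ubiquitin. Its barrel-shaped 20S core has outer rings of alpha subunits, which gate the channel, and inner rings of beta subunits, 3 of which carry the proteolytic sites. A 19S particle caps the barrel: a base of ATPases unfolds substrates and threads them inward, and a lid removes the ubiquitin. Assembly chaperones build core and base, and other activators such as PA28 can dock in place of the 19S cap. In lymphocytes the particle is also known for making peptides for antigen presentation and for degrading inhibitors of signalling pathways.

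The libraries were first set against each other. Over 9215 genes averaging 1 FPKM or more, log2(FPKM + 1) correlated at Pearson r = 0.568 between the Ang II libraries, at 0.994 between the IL-33 libraries and at 0.555 to 0.567 between groups. For genes between 1 and 32 in FPKM times kilobases of exon, the median difference was 10.4 times counting noise between the Ang II libraries and 0.887 times between the IL-33 libraries. In the 2 ranges above 32 the IL-33 pair stood at 1.03 to 1.19 times that noise. The noise rests on a depth of 6980000 fragments, itself an estimate from how often scarce genes were at 0 in 1 IL-33 library and not the other. Since the depth was estimated from the same pair, the closeness of the pair to this noise is partly set by the estimate. At that depth the IL-33 pair differed by less than sampling noise for genes between 1 and 32, and it was counted as 1 sample, so the tests have n = 2 for Ang II and n = 1 for IL-33. Over all 45 proteasome genes, the 2 IL-33 libraries were never 2-fold apart on the log2(FPKM + 1) scale, whereas the 2 Ang II libraries were for 13 genes. The Ang II libraries differed by a median of 0.484 on that scale over the proteasome genes tested, and by 1.22 over all 9215 genes. These sets differ in level, and genes of like level are set beside each other below. The 10 ILC2 markers summed to 2370.3 and 2002 FPKM with Ang II and to 2256.7 and 2272 FPKM with IL-33. All but Kit were present in every library. Kit stood at 6.26 and 0.01 FPKM with Ang II and at 6.17 and 5.75 FPKM with IL-33. Ncr1, Tbx21 and Klrb1c of NK cells and ILC1s were listed at 0. The share of summed FPKM in haemoglobin genes was 0.897% and 0.401% with Ang II and 5.83% and 5.78% with IL-33. The 6 T cell markers summed to 36.6 and 6.6 FPKM with Ang II and to 135.9 and 141.4 FPKM with IL-33, and 5 of the 6 were lower in both Ang II libraries. The 4 lung epithelium markers summed to 80.1 and 188.7 FPKM with Ang II and to 366.2 and 356.3 FPKM with IL-33, all 4 lower in both Ang II libraries. The 6 macrophage and monocyte markers summed to 2034.2 and 916.2 FPKM with Ang II and to 2061.9 and 2027.8 FPKM with IL-33, with 1 higher and 2 lower in both. Among them Marco had 191 and 23.2 FPKM with Ang II and was listed at 0 with IL-33, while Csf1r and Mrc1 were at most 0.13 FPKM in every library. The part of these other cells in the values below was not tested, and in such bulk samples fewer cells of a type and less RNA per cell cannot be told apart.

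Of the 45 proteasome genes, 22 stayed within 2-fold over all 4 libraries. Of the 45 genes, 42 averaged 1 FPKM or more and were tested. Among them Psmg4 was tested only through its Ang II values, and Psmd3 and Psme4 only through their IL-33 values. Psma8, a testis variant of an alpha subunit, and Psmb11, the beta subunit of the thymus proteasome, match the naming but are no part of the constitutive particle, and both were listed at 0 in all 4 libraries. The third, Psmg3, a core assembly chaperone, stood at 0.02 and 0.05 FPKM with Ang II and at 0.02 and 0 FPKM with IL-33. Together the proteasome genes took 1.13% and 1.21% of the FPKM sum with Ang II, against 1.27% in each IL-33 library. In 10 genes both Ang II values lay above both IL-33 values, and in 13 both lay below. Of all 9215 genes tested, 24.4% were higher and 33.5% lower in this sense. Scaling each library to an equal sum turned the split of the proteasome genes to 11 higher and 10 lower, beside 26.5% and 31.8% of all genes tested. Equal sums without haemoglobin genes gave 10 higher and 15 lower, beside 24.7% and 33.6%. Median-ratio scaling gave 9 higher and 17 lower, beside 23.7% and 34.9%. The median log2 fold change, Ang II minus IL-33 on the log2(FPKM + 1) scale, was -0.15 over the 42 genes and -0.0037 over all genes tested. No proteasome gene, and no other gene, reached the adjusted threshold of 0.05 in limma's two-sided test (0.0% of 9215 genes, Benjamini-Hochberg). At an unadjusted p under 0.05 there were 4 of the 42 (Psma6, Psmd3, Psme4 and Psmg4), beside 13.6% of all genes tested. Psmd3, Psme4 and Psmg4 had to differ to pass the filter. A p that misses the threshold does not show that the groups are alike. With 1 residual degree of freedom, the fit takes the IL-33 sample to vary like the Ang II pair.

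All 14 constitutive subunits of the 20S core were found in every library at 30.9 FPKM or more. The most abundant core transcript was Psmb2 in both Ang II libraries (436 and 348 FPKM) and Psmb6 in both IL-33 libraries (454 and 453 FPKM). The least abundant was Psmb7 in every library. The highest subunit exceeded the lowest by 14.1-fold and 8.22-fold in the Ang II libraries and by 12.5-fold and 12.6-fold in the IL-33 libraries. Between the Ang II libraries the log2 levels correlated at Pearson r = 0.878 over the 14 core subunits and at 0.698 over the 42 measured proteasome genes, and between the IL-33 libraries at 1.0 over both sets. These correlations run across genes of the same libraries and describe them only. Of the 14 subunits, 3 were higher and 7 were lower in both libraries with Ang II. With equal sums these counts were 4 and 5, with equal sums without haemoglobin genes 3 and 8, and with median-ratio scaling 3 and 10. Over all genes tested, 24.4% were higher and 33.5% lower as deposited, and 26.5% and 31.8% with equal sums. The shares were 24.7% and 33.6% without haemoglobin genes, and 23.7% and 34.9% with median-ratio scaling. Those shares cover genes of all levels. Of 1374 other genes at 36.5 to 185 FPKM with IL-33, 19.9% were higher and 48.8% lower as deposited. Some core subunits lay above that range.

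The alpha ring held the lowest fold change of the core. Psma6 stood at 76.0 and 96.0 FPKM with Ang II and at 284 and 277 FPKM with IL-33 (log2 fold change -1.70, SE 0.30, limma adjusted p = 0.306). Its Ang II values lay far below both IL-33 values, and the gap was larger than the difference between the Ang II libraries. Psma1 behaved alike, with 104 and 72.1 FPKM in the Ang II libraries against 194 FPKM in both IL-33 libraries (log2 fold change -1.16, SE 0.40). Psma4 had 61.7 and 74.1 FPKM with Ang II and 125 FPKM in both IL-33 libraries (log2 fold change -0.88, SE 0.29). These 3 subunits were lower in both Ang II libraries under each of the 4 scalings tried, and none passed the adjusted threshold.

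Of the other alpha subunits, Psma5 and Psma7 were higher in both Ang II libraries, Psma2 overlapped and Psma3 was lower in both. Psma5 stood at 312 and 224 FPKM with Ang II and at 195 and 193 FPKM with IL-33 (log2 fold change 0.44, SE 0.35). Psma7 stood at 184 and 142 FPKM with Ang II and at 133 and 131 FPKM with IL-33 (log2 fold change 0.30, SE 0.31). Both were higher in both Ang II libraries, by about as much as the Ang II libraries differed from each other. Psma2 was among the steadiest genes of the particle, at 184 and 163 FPKM with Ang II and 183 and 179 FPKM with IL-33. Psma3 stood at 57.5 and 94.5 FPKM with Ang II and at 95.6 and 95.4 FPKM with IL-33, just below the IL-33 values in library 2. A gene model annotated by GENCODE M21, Gm13835, shares 665 bases at 100% identity with the Psma3 transcript and held more signal than Psma3 itself, 139 and 241 FPKM with Ang II and 277 and 269 FPKM with IL-33. How the authors' counting split reads between the pair is not given in the sources used here, so the Psma3 level is uncertain. Their sum was 197 and 335 FPKM with Ang II and 373 and 364 FPKM with IL-33, lower in both Ang II libraries like Psma3 alone, though Psma3 overlapped with equal sums, with or without haemoglobin genes.

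Among the catalytic beta subunits, Psmb5 and Psmb6 were lower in both Ang II libraries and Psmb7 overlapped. Psmb5 carries the chymotrypsin-like site, the target of clinical proteasome inhibitors, and lies on chromosome 14 (54614119 to 54618022, minus strand, mm10). It stood at 248 and 279 FPKM with Ang II and at 412 and 424 FPKM with IL-33 (log2 fold change -0.67, SE 0.19, limma adjusted p = 0.482). Psmb6, which carries the caspase-like site and lies on chromosome 11 (70525367 to 70527858, plus strand, mm10), stood at 296 and 241 FPKM with Ang II and at 454 and 453 FPKM with IL-33 (log2 fold change -0.76, SE 0.25, limma adjusted p = 0.539). In both genes the groups did not overlap, and the gap exceeded the difference between the Ang II libraries. Psmb7, which carries the trypsin-like site, stood at 30.9 and 42.3 FPKM with Ang II and at 36.3 and 36.1 FPKM with IL-33, so that the IL-33 values lay between the Ang II values.

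The beta subunits without a proteolytic site varied less in sum. Psmb3 stood at 232 and 201 FPKM with Ang II and at 211 and 212 FPKM with IL-33, and Psmb2 at 436 and 348 FPKM with Ang II and at 436 and 432 FPKM with IL-33. Both overlapped between groups. Psmb4 stood at 163 and 273 FPKM with Ang II and at 304 and 298 FPKM with IL-33, lower in both Ang II libraries but with equal sums overlapping. Psmb1 was the one beta subunit higher in both, at 158 and 74.0 FPKM with Ang II and at 57.0 and 56.9 FPKM with IL-33 (log2 fold change 0.92, SE 0.74), and its Ang II values were over 2-fold apart.

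**Figure D1:**
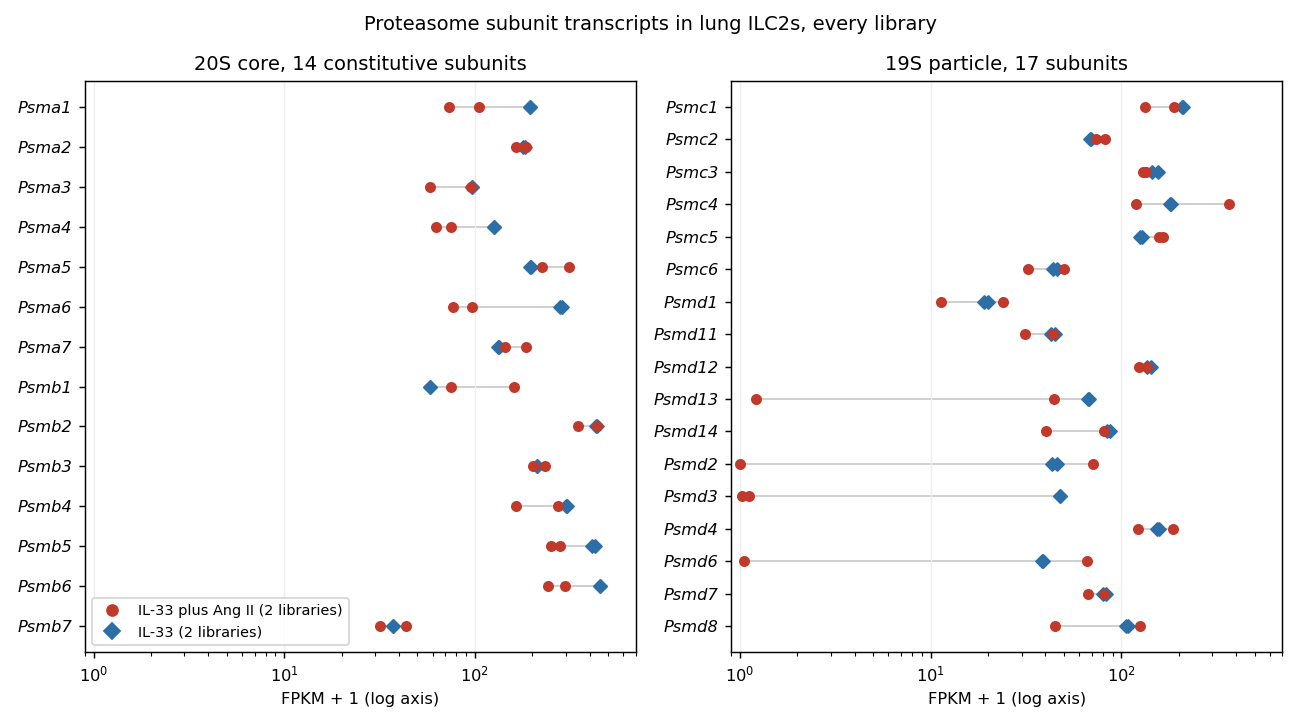
FPKM + 1 on a log axis for the 14 constitutive 20S core subunits (left) and the 17 subunits of the 19S particle (right), with the 2 IL-33 plus Ang II libraries as circles and the 2 IL-33 libraries as diamonds. Every core subunit stays at 30.9 FPKM or more, while Psmd2, Psmd3, Psmd6 and Psmd13 of the 19S particle lie below 1 FPKM in 1 or both Ang II libraries.

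Inducible counterparts can take the place of the catalytic subunits, and they were set beside them. Psmb8, which replaces Psmb5, stood at 307 and 319 FPKM with Ang II and at 380 and 385 FPKM with IL-33. The level of Psmb8 was 1.24 and 1.15 times that of Psmb5 in the Ang II libraries and 0.923 and 0.909 times in the IL-33 libraries. For Psmb9 against Psmb6 these ratios were 0.207 and 0.191 with Ang II and 0.133 and 0.134 with IL-33. For Psmb10 against Psmb7 they were 6.74 and 5.43 with Ang II and 5.17 and 5.48 with IL-33, and overlapped. Summed over the 3 positions, inducible transcripts were 1.0 and 1.06 times the constitutive ones with Ang II and 0.696 and 0.705 times with IL-33. As deposited, both sums were lower with Ang II. The inducible sum was 577 and 595 FPKM with Ang II and 628 and 644 FPKM with IL-33. The constitutive catalytic sum was 575 and 562 FPKM with Ang II and 902 and 913 FPKM with IL-33. Ratios within a library do not depend on its scaling, and no test was run on them.

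**Figure D2:**
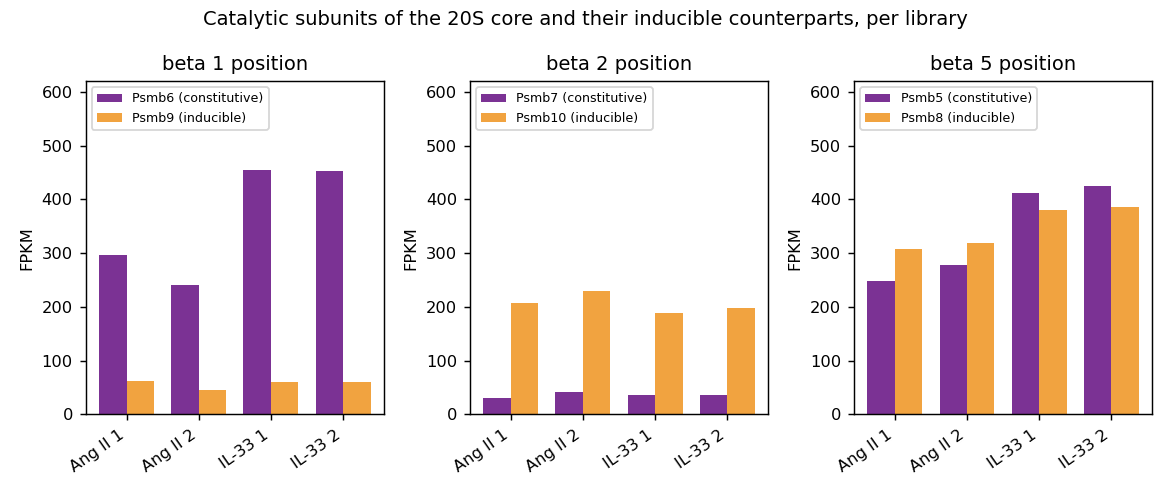
FPKM per library of the constitutive catalytic subunits Psmb6, Psmb7 and Psmb5 and of the inducible subunits Psmb9, Psmb10 and Psmb8 at the same positions, with 1 bar per gene and library. Psmb6 and Psmb5 are lower in both Ang II libraries, Psmb8 exceeds Psmb5 in both Ang II libraries and lies under it in both IL-33 libraries, and Psmb10 exceeds Psmb7 in all 4 libraries.

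The 6 ATPases of the 19S base were found in every library. Psmc2 was steady at 72.7 and 81.1 FPKM with Ang II and 68.4 and 67.9 FPKM with IL-33, and so was Psmc3 at 134 and 128 FPKM with Ang II and 144 and 154 FPKM with IL-33. Psmc5 was higher in both Ang II libraries, at 164 and 156 FPKM against 127 and 124 FPKM with IL-33 (log2 fold change 0.35, SE 0.20). Psmc1 was lower in both, at 131 and 188 FPKM with Ang II and 211 and 206 FPKM with IL-33. Psmc4 differed most between the Ang II libraries, at 368 and 118 FPKM, around its IL-33 values of 181 and 180 FPKM. Psmc6 also overlapped. Over the 6 ATPases the median log2 fold change was 0.01. In both Ang II libraries 2 of them were higher and 2 were lower, beside 24.4% and 33.5% of all genes tested.

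The non-ATPase subunits of the 19S particle were less even. Psmd2, a scaffold of the base that binds ubiquitin-like domains, was listed at 0 in Ang II library 1 and stood at 69.8 FPKM in library 2, against 45.0 and 42.1 FPKM with IL-33. The lid subunit Psmd6 stood at 0.05 and 65.2 FPKM with Ang II and at 37.2 and 37.7 FPKM with IL-33. The lid subunit Psmd13 stood at 0.22 and 43.2 FPKM with Ang II and at 65.9 and 66.4 FPKM with IL-33. In these genes library 1 was near 0 and library 2 was not, so their fold changes have SEs of 3.36 to 3.97. Psmd3, another lid subunit (chromosome 11, 98682554 to 98695979, plus strand, mm10), was near 0 in both Ang II libraries. It stood at 0.11 and 0.03 FPKM there, against 46.6 and 47.0 FPKM with IL-33 (log2 fold change -5.48, SE 0.60). It was tested only through its IL-33 values, and no p is given. The size of this fold change depends on the pseudocount, at -8.15 with 0.1 FPKM and -3.35 with 5 FPKM. A value near 0 in such a file does not by itself show that a transcript was absent.

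The remaining lid and base subunits were found in every library. Psmd12 stood at 123 and 135 FPKM with Ang II and at 135 and 142 FPKM with IL-33, and Psmd7 at 65.9 and 80.5 FPKM with Ang II and at 79.5 and 82.4 FPKM with IL-33, both among the 7 steadiest genes of the 45. Psmd14, the lid enzyme that removes ubiquitin chains, stood at 39.2 and 80.3 FPKM with Ang II and at 86.4 and 83.5 FPKM with IL-33, lower in both but with equal sums overlapping. Psmd4, a ubiquitin receptor of the base, stood at 121 and 186 FPKM with Ang II around IL-33 values of 153 and 157 FPKM. Psmd1, Psmd8 and Psmd11 overlapped between groups as well. Of the 8 lid subunits 0 were higher in both and 3 were lower in both, and of the 17 subunits of the 19S particle 2 were higher and 5 lower. These counts stand beside 24.4% higher and 33.5% lower of all genes tested. With median-ratio scaling the counts for the 19S particle were 1 and 6, beside 23.7% and 34.9%.

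The subunits of the cap were spread more widely within the Ang II libraries than within the IL-33 libraries. Over the 17 subunits of the 19S particle the SD of log2(FPKM + 1) was 2.87 and 1.84 in the Ang II libraries and 0.945 and 0.952 in the IL-33 libraries. Over the 14 core subunits it was 1.08 and 0.922 in the Ang II libraries and 1.08 in each IL-33 library. Level and length moved with this. The 6 proteasome genes below 1 FPKM in an Ang II library but at 5 FPKM or more with IL-33 (Psmd2, Psmd3, Psmd6, Psmd10, Psmd13 and Psme4) stood at a median of 40.5 FPKM with IL-33, against 132 FPKM for the 33 others that reached 5 FPKM there. Their longest coding transcripts had a median of 2068.5 bases, against 1440 bases for the 33 others. Of the 20 proteasome genes with an IL-33 mean of at least 100 FPKM, none was below 43.9 FPKM in any library. Their Ang II libraries differed by a median of 0.33 on the log2 scale, against 0.51 for 681 other genes of that level, of which 3.52% were below 1 FPKM in a library. The part of level and length in these values was not tested.

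Genes of like level were set beside the proteasome genes. Between 36.5 and 185 FPKM with IL-33 there were 20 proteasome genes and 1374 others. Of the 20 proteasome genes 4 were below 1 FPKM in an Ang II library, against 234 of the others. Within 2-fold over all 4 libraries were 11 (55.0%) of the proteasome genes and 35.7% of the others. In both Ang II libraries 6 proteasome genes were lower, against 48.8% of the others, and 4 were higher, against 19.9% of the others. The median log2 fold change was -0.17 for the proteasome genes and -0.46 for the others at this level. These are descriptions, with no test of the difference.

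**Figure D3:**
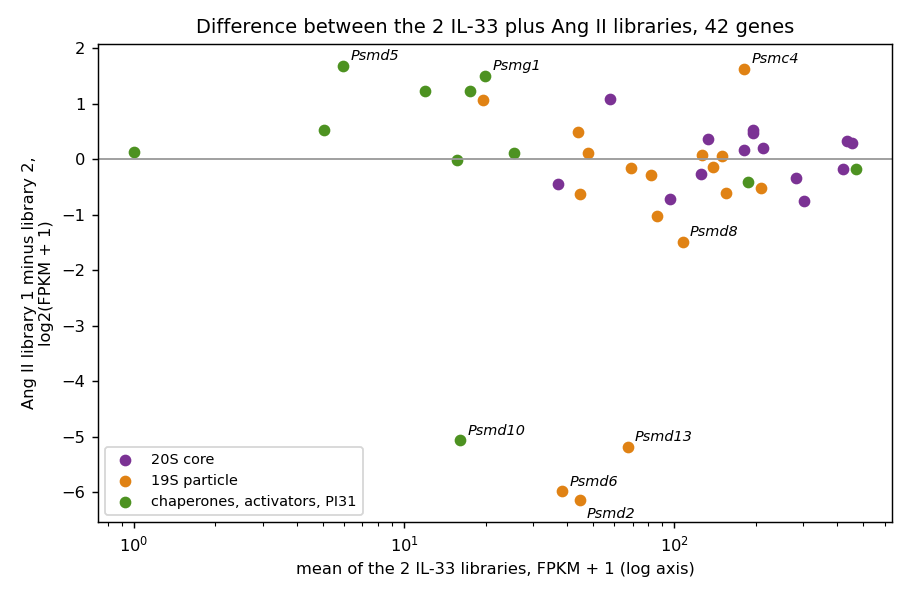
Difference in log2(FPKM + 1) between IL-33 plus Ang II library 1 and library 2 for the 42 measured proteasome genes, against the mean of the IL-33 libraries in FPKM + 1 on a log axis. The genes far below the line, Psmd2, Psmd6, Psmd10 and Psmd13, were near 0 in library 1 only, and no 20S core subunit lies among them.

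Of 3 chaperones of the base, 2 were higher in both Ang II libraries, beside 24.4% of all genes tested. Psmd9, which guides an ATPase pair of the base together, stood at 25.9 and 17.8 FPKM with Ang II and at 4.08 and 4.06 FPKM with IL-33 (log2 fold change 2.15, SE 0.58, limma adjusted p = 0.458). Psmd5, another base chaperone, stood at 48.4 and 14.3 FPKM with Ang II and at 4.76 and 5.11 FPKM with IL-33 (log2 fold change 2.21, SE 1.17). The third, Psmd10 (gankyrin), was listed at 0 in Ang II library 1 and stood at 32.3 FPKM in library 2, against 15.6 and 14.6 FPKM with IL-33. Both Ang II values of Psmd9 exceeded the IL-33 values by more than they differed from each other, whereas for Psmd5 the lower Ang II value did not.

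Chaperones of the core differed among themselves. Psmg4, a chaperone of the alpha ring, had 37.2 and 33.7 FPKM with Ang II and was listed at 0 in each IL-33 library, so no fold is given. It was tested only through its Ang II values, and no p is given. Its partner Psmg3 was at most 0.05 FPKM in every library. The other chaperone pair, Psmg1 and Psmg2, was found in all libraries and overlapped between groups, with Psmg1 at 47.2 and 16.0 FPKM with Ang II and at 17.8 and 20.02 FPKM with IL-33. Pomp, the maturation factor of the core, stood at 129 and 60.9 FPKM with Ang II around 71.7 FPKM in both IL-33 libraries.

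Activators other than the 19S cap showed 3 patterns. Psme1 and Psme2, the interferon-inducible subunits of PA28, were abundant and overlapped, with Psme2 at 449 and 504 FPKM with Ang II and at 461 and 480 FPKM with IL-33. Psme2b shares 794 bases at 99.37% identity with Psme2, so reads may be split between them. Their sum was 747 and 936 FPKM with Ang II and 795 and 805 FPKM with IL-33. Psme3, the nuclear form of PA28, stood at 71.0 and 29.8 FPKM with Ang II and at 11.3 and 10.6 FPKM with IL-33 (log2 fold change 1.98, SE 0.86, limma adjusted p = 0.681), higher in both. Psme4, the large activator PA200, stood at 0.02 and 0.03 FPKM with Ang II and at 14.7 FPKM in both IL-33 libraries (log2 fold change -3.94, SE 0.39). Like Psmd3, it was tested only through its IL-33 values, and no p is given. With a pseudocount of 0.1 FPKM the fold change of Psme4 was -6.89, and with 5 FPKM it was -1.97. Psmf1, the regulator PI31, was higher in both, at 32.6 and 30.1 FPKM with Ang II and at 23.6 and 25.4 FPKM with IL-33.

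**Figure D4:**
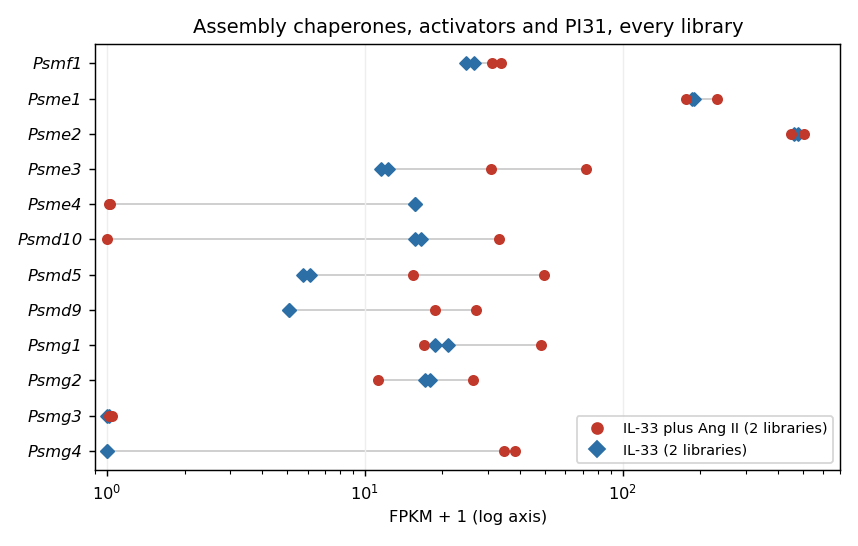
FPKM + 1 on a log axis for the assembly chaperones, activators and PI31, with the 2 IL-33 plus Ang II libraries as circles and the 2 IL-33 libraries as diamonds. Psmd5, Psmd9, Psme3 and Psmg4 lie higher in both Ang II libraries, Psme4 lies lower in both, and Psme1 and Psme2 overlap.

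When the IL-33 libraries were taken as 2 replicates, limma passed 6 of the proteasome genes at an adjusted p of 0.05. Psmd9 and Psmg4 passed as higher, and Psma6, Psmb5, Psmd3 and Psme4 as lower. Psmg4 was tested only through its Ang II values, and Psmd3 and Psme4 only through their IL-33 values, so these had to differ to be tested. Of all genes tested, 5.34% passed as higher and 13.0% as lower. That fit includes the spread of the IL-33 pair, at 0.887 to 1.19 times the estimated counting noise, in the spread between samples, and these calls did not hold with IL-33 as 1 sample.

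Of the wider ubiquitin pathway, the polyubiquitin gene Ubb was higher in both Ang II libraries. It stood at 5881 and 5253 FPKM with Ang II and at 3647 and 3684 FPKM with IL-33 (log2 fold change 0.60, SE 0.14, limma adjusted p = 0.390). The ubiquitin-ribosomal fusion gene Rps27a stood at 128 and 41.5 FPKM with Ang II and at 146 and 141 FPKM with IL-33. Of 6 genes for p97 and its cofactors, which extract ubiquitinated proteins, 0 were higher and 3 lower in both, beside 24.4% and 33.5% of all genes tested, with Vcp at 106 and 53.3 FPKM with Ang II and at 115 and 121 FPKM with IL-33. The ubiquitin-activating enzyme gene Uba1 was lower in both, at 8.86 and 19.8 FPKM with Ang II and at 24.4 and 26.1 FPKM with IL-33. Of the measured partners outside the naming, Sem1 of the lid was steady at 54.8 and 63.2 FPKM with Ang II and 62.3 and 61.1 FPKM with IL-33, and the base receptor Adrm1 stood at 15.0 and 66.8 FPKM with Ang II around 22.6 and 23.8 FPKM with IL-33. Nfe2l1, the factor that induces proteasome genes when degradation is blocked, was low, at 9.76 and 2.40 FPKM with Ang II and at 0.88 and 0.68 FPKM with IL-33. Ngly1, an enzyme needed for its activation, stood at 0.03 and 0.05 FPKM with Ang II and at 3.63 and 3.53 FPKM with IL-33. None of these genes passed the adjusted threshold. Ngly1 was tested only through its IL-33 values and Nfe2l1 only through its Ang II values, so both had to differ to be tested.

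Promoter windows, 250 bases before to 50 bases after the start, were found in RefSeq (GRCm38.p6) for 37 of the 45 genes, in 40 windows. Psma8, Psmb1, Psmb2, Psmb7, Psmc3, Psmd3, Psmd7 and Psmg2 had none. The core of the antioxidant response element TGACNNNGC, the site that Nfe2l1 and Nfe2l2 bind with small MAF proteins, was searched on both strands, and matches of different motifs may overlap. It matched 15.0% of the proteasome windows, against 14.7% of 7466 windows of tested genes. It was held by 6 genes, of which Psmb5, Psmb6 and Psme4 were lower in both Ang II libraries, Psmd9 was higher in both, and Psmc6 and Psmd12 overlapped. Psma1, Psma4 and Psma6, also lower in both, held no match. CCAAT matched 32.5% of the proteasome windows and 38.3% of windows of tested genes. The ETS core CTTCCG matched 14 of 15 windows of 19S genes (93.3%), 4 of 12 windows of core genes (33.3%) and 34.5% of windows of tested genes. The exception was Psmc5. The element was present both in 19S genes that were steady, such as Psmc2 and Psmd12, and in Psmd2, Psmd6 and Psmd13, near 0 in Ang II library 1. Psmd3, near 0 in both Ang II libraries, had no window to search. A match is a description of the letters and not a measured site.

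**Figure D5:**
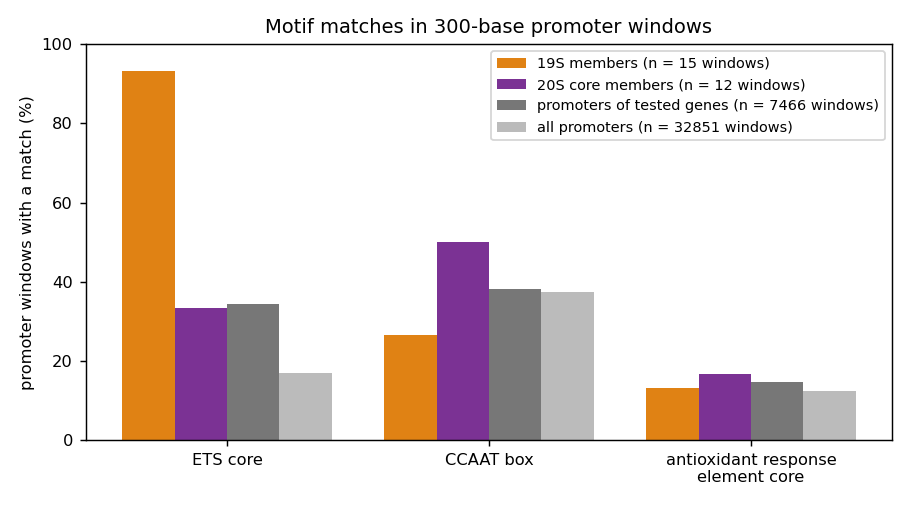
Share of 300-base promoter windows, in percent, with a match to the ETS core, the CCAAT box or the antioxidant response element core, for 15 windows of 19S genes, 12 of 20S core genes, 7466 of tested genes and 32851 in all. The ETS core reaches 93.3% of the 19S windows and 33.3% of the core windows, while the antioxidant response element core lies between 12.4% and 16.7% in every set.

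The sequences shown here are bases before the RefSeq start of each gene, 5′ to 3′ on the gene's strand, with the matched motif in capitals. They show the element shared by steady and near-0 genes of the 19S particle, and the antioxidant response core in a pair of the 6 genes that hold it, Psmb5 and Psmb6. Psmc2 lies at chr5:21785171-21785216 and Psmd12 at chr11:107479491-107479527, both on the plus strand. Psmd2 lies at chr16:20651606-20651651 and Psmd13 at chr7:140882283-140882328 on the plus strand, and Psmd6 at chr14:14120964-14121009 on the minus strand. Psmb5 lies at chr14:54618014-54618062 on the minus strand and Psmb6 at chr11:70525328-70525356 on the plus strand. CGGAAG is CTTCCG read on the other strand.
Psmc2: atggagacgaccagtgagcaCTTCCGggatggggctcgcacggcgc
Psmd12: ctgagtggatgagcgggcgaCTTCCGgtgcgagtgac
Psmd2: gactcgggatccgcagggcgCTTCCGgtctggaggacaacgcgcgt
Psmd6: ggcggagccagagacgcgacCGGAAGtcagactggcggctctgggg
Psmd13: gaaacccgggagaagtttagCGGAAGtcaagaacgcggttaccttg
Psmb5: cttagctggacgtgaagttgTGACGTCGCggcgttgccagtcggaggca
Psmb6: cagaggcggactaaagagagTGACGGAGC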

How the data were processed

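Each sample was 500 ILC2s, whose amplified cDNA was sequenced in pairs, per the labels' protocols, which name no molecular identifiers. Values are FPKM by gene in the tables the authors deposited. The submitters' processing notes list mm10, HISAT, StringTie and edgeR without roles, and no version is given there. No count model was run, since FPKM are not counts and the files give no depth.

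Column names tied each column to its sample. Genes averaging 1 FPKM or more over 3 columns (both Ang II libraries and the IL-33 mean) were tested on log2(FPKM + 1), pseudocount 1, with limma 3.58.1 in R 4.3.3 (mean-variance trend, two-sided, Benjamini-Hochberg over 9215 genes). Its p-values measure only the spread between these libraries, which may be technical. Fold changes of genes near 0 in a group depend on the pseudocount. Gene models were matched to GENCODE M21 (55141 of 55401 found). Near copies were transcripts of other genes at 95% identity or more over 300 bases (BLAST 2.17.0), found for 11 of 45 genes. Psma4, Psma5, Psmb3 and Psmb5 of the core were among these genes. Their copies had lower FPKM than the gene itself in every library, and reads may be split there too.

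By the naming rule, values in each library are printed for the 14 core subunits, for the 5 largest fold changes outside the core in each direction, for genes at 0 in 1 library and above 5 FPKM in another, for the 7 steadiest genes, and for up to 4 abundant genes of each other list. Further genes were chosen after their values were seen. Alternatives covered the pseudocount, the filter, the scaling, the counting of IL-33 libraries, the replicate block and each library left out. The genes and lists were chosen with earlier results of these data known. Some genes of the wider ubiquitin pathway are not reported here.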

Additional observations from a re-analysis of the deposited data

How the results depend on the processing

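With IL-33 as 1 sample, 0 genes passed the adjusted threshold in limma under each pseudocount, filter and scaling and without either IL-33 library, where 515 to 2693 genes had an unadjusted p under 0.05. Treating the IL-33 libraries as 2 replicates gave 1665 passing genes, and adding the replicate block to that fit gave 0, with 1877 at an unadjusted p under 0.05. Groups share only a replicate number, and deviations of same-numbered libraries correlated at -0.019 across genes.

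Proteasome genes higher in both Ang II libraries numbered 9 to 11 and lower 10 to 17 over the pseudocounts, filters and scalings. Over the scalings, 23.7% to 26.5% of all genes tested were higher and 31.8% to 34.9% lower. Equal sums put the median log2 fold change at 0.162 over all genes and -0.0818 over the proteasome genes. In that setting the filter and pseudocount of 1 met larger values, so more genes were included. These medians therefore differ from those as deposited by more than the scaling. With each library left out in turn, 10 to 19 proteasome genes were higher and 14 to 24 lower. Their median was -0.158 to -0.0232, the last without Ang II library 1. The share of all genes was not counted with a library left out, so these counts have no background beside them. With 1 Ang II library a gene needs only 1 value outside, which raises these counts by construction, and no residual degree of freedom remains for a test.

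Of 30 named genes with a fold change, 9 changed sign under some setting. With both Ang II libraries kept there were 4, each under 0.1 in size. Psmb7 stood at 0.000793 with a pseudocount of 5 FPKM, 0.0697 with equal sums, 0.00449 without IL-33 replicate 1 and -0.221 to 0.22 over all libraries left out. Psma2 stood at 0.0133 with equal sums and Psmb3 at -0.0439 with median-ratio scaling. Psme2 stood at -0.0556 with median-ratio scaling, -0.0113 without IL-33 replicate 1 and -0.0663 to 0.1 over all libraries left out. Without Ang II library 1, which held them near 0, Psmd2 stood at 0.67, Psmd6 at 0.79 and Psmd10 at 1.05, against -2.41, -2.20 and -1.48 with it. Psmg1 (-0.23 without Ang II library 1) and Psmb2 (0.0072 without Ang II library 2) also changed sign. For the other changes the cause was not tested.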
